A study of Mus musculus with 54 samples.

Results

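Normal intestinal mucosa of mice carrying the Apc Min allele was compared with intestinal mucosa of wild type mice in 2 related strains, C5 and C5F1. The libraries were chosen by their labels alone: methylated DNA immunoprecipitation (MeDIP) libraries labelled C5 no (3), C5F1 no (3), C5 wt (3) and C5F1 wt (3), which makes 12 of the 46 MeDIP libraries with counts and 12 of the 54 samples labelled in the series. One further sample of these groups, C5F1 wild type 12_10, was not analysed here. C5 is a chromosome substitution strain with a C57BL/6 (B6) genome in which chromosome 5 comes from the PWD strain. C5F1 is the F1 of C57BL/6 and that strain, so it carries 1 PWD and 1 B6 copy of chromosome 5. All 12 libraries came from mice aged 15 to 19 weeks and were made with an antibody against 5-methylcytosine. The labels call the tissue normal mucosa in both genotypes and do not give the part of the intestine. The first number of a sample label was 12 in 8 libraries and 16 in 4, with both genotypes in equal number in each strain and number. What that number marks is not stated. Nothing in the labels ties a library to a separate animal, so p-values refer to these libraries and not to separate animals. Those by edgeR, used below, also draw on a spread shared across features.

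Apc is part of the destruction complex that holds β-catenin levels down. The Min allele truncates it, and adenomas form where the remaining wild type copy is lost, while the mucosa around them still has that copy. DNA methylation in vertebrates sits mostly on CpG sites: most of the genome is methylated, and CpG islands at gene starts are mostly free of it. GATA and HOX transcription factors are among the genes that set regional identity along the gut. MeDIP captures methylated fragments, so counts rise with methylation and with the number of CpGs in a fragment, and in bulk mucosa a change in methylation per cell and a change in the mix of cells cannot be told apart.

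The 12 libraries held 15114668 to 24158323 counts, Apc Min 19979875 to 24158323 and wild type 15114668 to 23495837. Levels are given as CPM over each library's autosomal counts, differences as log2 of Apc Min over wild type with a standard error, and a feature passed when its Benjamini-Hochberg adjusted p by edgeR's quasi-likelihood test was under 0.05. The strain labels were checked on 250 bp windows of chromosome 5 captured only in wild type B6 or only in PWD. At 38 B6-only windows C5F1 libraries held 43.1% to 47% of the B6 level, and 5 of the C5 libraries held 1.7% to 3.36%. C5 Apc Min 12_2 stood apart from these with 8.84%. Whether it is a mixed library was not tested, and the calls in Gata4 and the difference at Hoxb5 are given with and without it. At 66 PWD-only windows C5 held 56.3% to 68.2% of the PWD level and C5F1 30.9% to 36.4%.

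Among autosomal features with enough counts, Apc Min normal mucosa and wild type mucosa of these strains differed at 1 place by this test, inside Gata4. As given below, that call turned on single libraries and did not pass an exact permutation. Of 9850971 autosomal windows, 648998 had enough counts to be tested. Of these, 2 passed (0.000308%), both higher in Apc Min and next to each other in Gata4. An unadjusted p under 0.05 was reached by 27111 (4.18%), 12334 of them higher and 14777 lower. Of 236021 bins of 10 kb, 0 passed (0%) with edgeR, 8622 reached an unadjusted p under 0.05 (3.65%), and 0 were called by DESeq2. Of 20665 gene ends, 9666 had enough counts to be tested. Of these, 0 passed (0%) with edgeR, 458 reached an unadjusted p under 0.05 (4.74%), and 0 were called by DESeq2. A gene end here is the CpG-richer end of a protein-coding gene, from 1000 bp outside to 500 bp inside. In the plot of p-values the lowest bar does not rise above the others for any of these 3 kinds of feature.

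**Figure D1:**
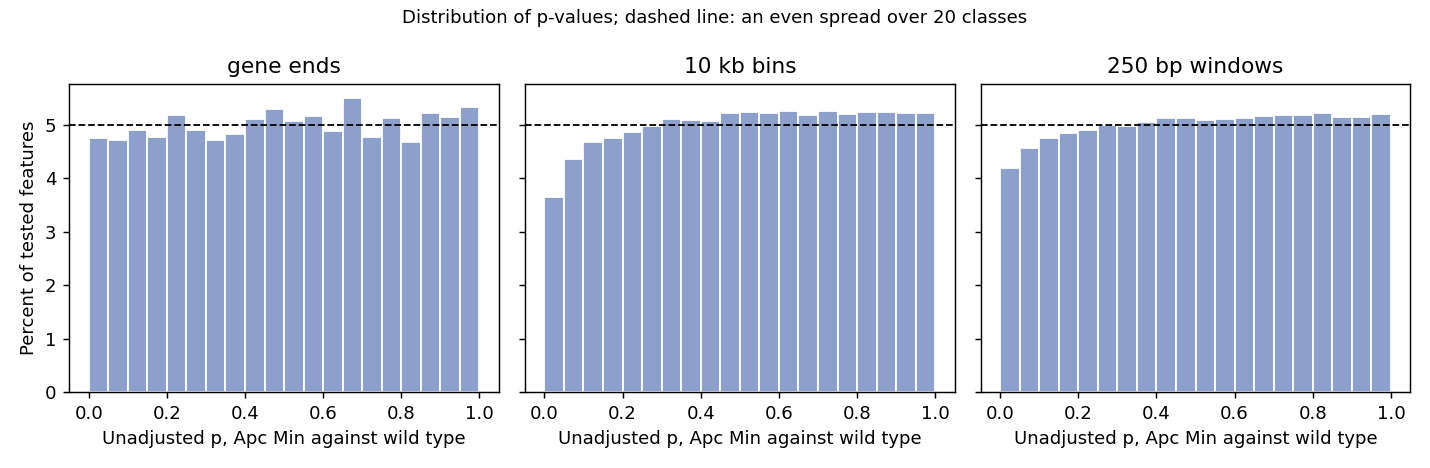
Distribution of unadjusted p-values (x axis, 0 to 1) by edgeR over all windows, 10 kb bins and gene ends tested between Apc Min normal mucosa and wild type mucosa (y axis, percent of features). The lowest bar, p under 0.05, holds 4.18% of windows, 3.65% of bins and 4.74% of gene ends.

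The precision of these comparisons is set by the depth of a feature. The median standard error was 0.105 in bins, 0.219 at gene ends and 0.256 in windows. The 95% interval of the difference stayed within 2-fold in either direction at 99.9% of bins, 94.2% of gene ends and 89.6% of windows. These standard errors and intervals use the spread that edgeR shares across features. Fitted differences over 2-fold were found at 3 bins, 5 gene ends and 512 windows.

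Gata4 encodes a zinc finger transcription factor of the proximal small intestine, where it sustains jejunal identity. It lies at chr14:63198914-63271712 (mm10). The window chr14:63251751-63252000 had 0 CPM in C5 Apc Min 12_2, 1.32 in 12_4 and 0.402 in 16_2, and in C5F1 Apc Min 0.986 in 12_7, 0.87 in 12_8 and 0.255 in 16_10. In wild type mucosa it had 0.146, 0.0451 and 0.396 CPM in C5 12_1, 12_11 and 16_1, and 0.0867, 0.0674 and 0 CPM in C5F1 12_10A, 12_12 and 16_7. The groups overlapped, since C5 Apc Min 12_2 lay with the low wild type libraries and C5 wild type 16_1 lay near 16_2. The window rose in Apc Min by 2.37 ± 0.42, from 0.124 ± 0.142 to 0.639 ± 0.5 CPM (SD, n = 6 each, adjusted p 0.0211 by edgeR), on 81 against 14 counts. Its neighbour chr14:63251501-63251750 rose by 1.65 ± 0.30, from 0.349 ± 0.579 to 1.02 ± 0.676 CPM (adjusted p 0.0473 by edgeR), on 130 against 39 counts. Both calls rest on the spread that edgeR shares across windows. At the first window no wild type library reached the filter's minimum count of 10. That window was therefore kept and tested only through Apc Min libraries, where it is high, so its direction is no support by itself. An exact permutation of genotype within the 4 cells of strain and number, chosen after seeing the data, gave p = 0.0694 and p = 0.153 (two-sided, smallest possible 0.0139).

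The neighbour differed between the strains. Its C5F1 Apc Min libraries had 1.43, 1.52 and 0.92 CPM and its C5F1 wild type libraries 0.0434, 0 and 0.0456 CPM, with no overlap. Its C5 Apc Min libraries had 0.0422, 1.78 and 0.452 CPM and its C5 wild type libraries 0.487, 0.0451 and 1.47 CPM, which overlapped over nearly their whole range. On counts summed over 3 libraries, C5F1 had 85 in Apc Min and 2 in wild type, a ratio per depth of 39.2 with an exact 95% counting interval of 10.5 to 329, and C5 had 45 and 37. That interval treats reads as independent and leaves out the spread between libraries. The fitted difference was 5.07 ± 0.63 in C5F1 and 0.26 ± 0.38 in C5, and the difference between these, 4.81 ± 0.82, passed (adjusted p 0.0118 by edgeR). It was 1 of 648998 windows (0.000154%) to do so, with 27446 at an unadjusted p under 0.05. With 1 library left out at a time, chosen after seeing the data, this difference ranged from 3.33 to 6.58 and passed in 5 of 12 cases. It was 3.33 without C5 wild type 16_1 (adjusted p 1 by edgeR) and 4.14 without C5 Apc Min 12_2 (adjusted p 0.523), and the call was also lost without C5F1 Apc Min 12_8, C5 Apc Min 16_2 or any of the 3 C5F1 wild type libraries (4.46 to 5.10). In 10 kb bins and at gene ends 0 differed between strains with edgeR (0% each), with 10397 and 395 at an unadjusted p under 0.05.

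Neighbouring windows of Gata4 showed the same pattern of libraries. Summed over 63251251 to 63252500, the block of 5 windows with the called pair, Apc Min libraries held 0.0843 to 4.11 CPM with a median of 2.8, and wild type libraries 0.0456 to 2.83 with a median of 0.263. A block of 7 windows at 63247251 to 63249000 held 0.506 to 4.92 CPM (median 3.79) in Apc Min and 0.226 to 5.54 CPM (median 0.508) in wild type. In both blocks 5 of the 6 Apc Min libraries lay above every wild type library other than C5 16_1, and the sixth, C5 12_2, lay at the level of the low wild type libraries. Of 25 windows of Gata4 that were tested, 11 were higher at an unadjusted p under 0.05, 0 were lower, and the median difference was 0.21. Over all 648998 windows 12334 were higher and 14777 lower at that p. None of the 25 lay between 63242000 and 63247001, where windows had too few counts. The 0 therefore does not cover the lower 2 kb bin described below, at 63244001 to 63246000. Windows close together are not independent of each other. Gata4 was also picked by the low p of its windows in these data, and the called pair is among the 11. The count is therefore no further support for a difference there. The gene end of Gata4 used here, at 63197914 to 63199413, had 0.552 CPM in Apc Min and 0.529 in wild type, a difference of 0.07 ± 0.26. It was taken as the CpG-richer end without regard to strand, so it need not hold the start of the gene. CpG-dense windows also lay inside the gene. From 63240501 to 63241250 the density was 22 to 30.1, at differences of 0.15 to 0.67, none of which passed.

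**Figure D2:**
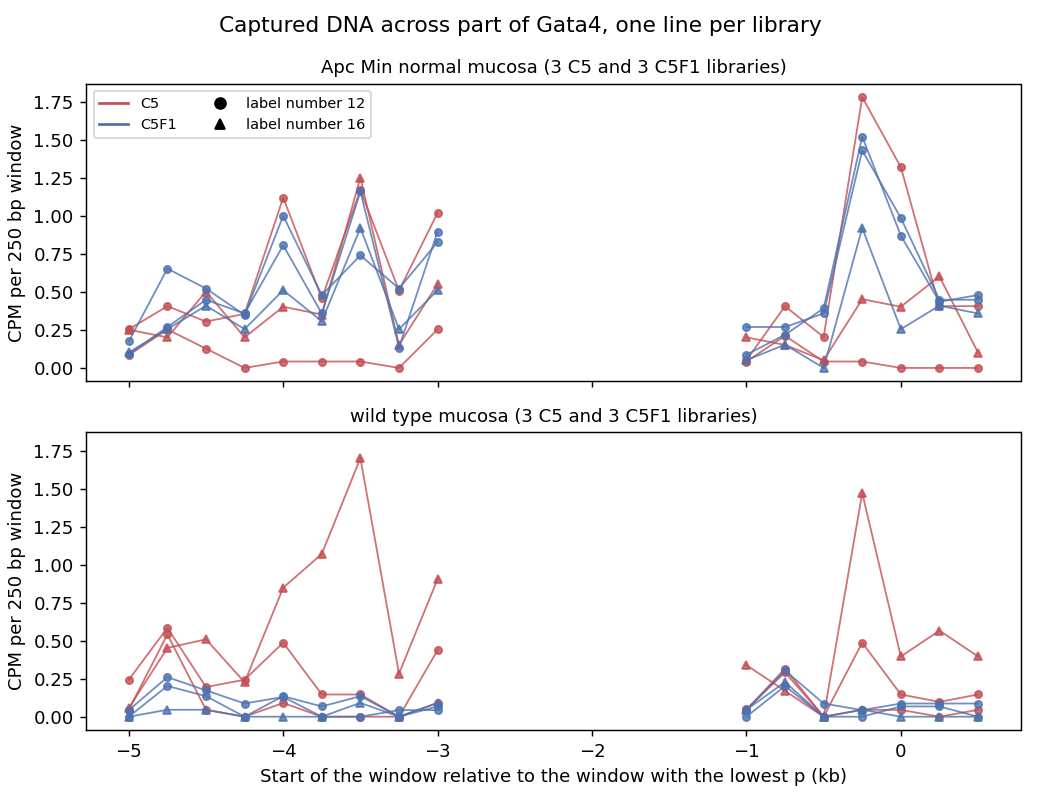
Captured DNA (y axis, CPM per 250 bp window) along 6 kb inside Gata4, by distance in kb from the window with the lowest p, with 1 line per library for Apc Min normal mucosa (top) and wild type mucosa (bottom). Lines break where windows were too poorly covered to be kept; 5 Apc Min libraries rise at both places, as does wild type C5 16_1, while Apc Min C5 12_2 stays near 0.

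In 2 kb bins, an alternative to the 10 kb bins, 3 bins passed and all 3 lay in Gata4. Those at 63248001 to 63250000 and 63250001 to 63252000 were higher in Apc Min, by 1.41 (adjusted p 0.00783) and 1.43 (adjusted p 0.00175 by edgeR). The bin at 63244001 to 63246000, only a few kilobases away, was lower by 2.07 (adjusted p 2.64e-05 by edgeR). With 1 library left out at a time, chosen after seeing the data, the lower bin passed in 12 of 12 cases, at -3.04 (without C5 Apc Min 12_2) to -1.75. The higher bins passed in 7 of 12 each, at 1.08 to 2.69 and 1.17 to 2.10. They were at 1.71 and 1.75 without C5 Apc Min 12_2, at 2.69 and 2.10 without C5 wild type 16_1, and lost the call without C5F1 Apc Min 12_7 or 12_8, C5 Apc Min 12_4, or C5F1 wild type 12_10A or 16_7. As at the windows, the calls of these bins, also with a library left out, rest on the spread that edgeR shares across bins. The lower bin held 0.0511 to 0.801 CPM (median 0.138) in Apc Min and 0.0566 to 2.17 CPM (median 1.29) in wild type. The C5F1 libraries did not overlap there, with 0.314, 0.174 and 0.0511 CPM in Apc Min and 2.17, 1.55 and 1.55 CPM in wild type. The C5 libraries did, with 0.801, 0.102 and 0.1 CPM in Apc Min and 1.02, 0.406 and 0.0566 CPM in wild type, and again 12_2 was the highest of the Apc Min libraries and 16_1 the lowest of wild type. At 10 kb the bin chr14:63250001-63260000 had the lowest p of all bins (0.82 ± 0.16, p 3.78e-06, adjusted p 0.892). It passed without C5 Apc Min 12_2 (1.02, adjusted p 0.0001) and without C5 wild type 16_1 (1.04, adjusted p 0.000586).

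The calls in Gata4 turned on single libraries. No window passed with edgeR without C5F1 Apc Min 12_7 or 12_8, C5 Apc Min 12_4, C5 wild type 12_11, or any of the 3 C5F1 wild type libraries. The differences there were close to those with all libraries, at 1.94 to 2.28 for the first called window and at least 1.32 for its neighbour. They were larger without C5 wild type 16_1, at 3.22 and 3.03, and without C5 Apc Min 12_2, at 2.82 and 2.02. Without C5 wild type 16_1 5 windows passed, all in Gata4, and without C5F1 Apc Min 16_10 or C5 Apc Min 16_2 3 passed, again all in Gata4. Without C5 wild type 12_1 10 passed, 6 of them in Gata4 and higher and 4 elsewhere and lower, of which 1 lay in Hoxb5. Without C5 Apc Min 12_2 10 passed, of which 5 lay in Gata4. Of the other 5 in that case, picked with their values known, 4 lay in the HoxB cluster and were lower in Apc Min: chr11:96303751 in Hoxb5 (-2.23), 96300501 and 96300751 in Hoxb6 (-1.77 and -1.22) and 96340751 in Hoxb3 (-2.96).

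Levels of the Gata4 block varied as widely in libraries that had no part in the comparison. In B6 mice the higher libraries were of the other genotype, with 0.0365 to 0.213 CPM in 3 Apc Min normal mucosa libraries and 0.0928 to 4.76 CPM in 4 wild type libraries. There wild type 10_1 and 4_5 were high, at 4.69 and 4.76 CPM, and the other 2 were at most 0.154. Adenomas of C5 held 0.22, 3.34 and 1.26 CPM. Over all 34 other MeDIP libraries the block ranged from 0.0365 to 4.92 CPM with a median of 1.29. At the called window with the lowest p B6 Apc Min libraries were at 0 and B6 wild type libraries at 0 to 1.87 CPM. In B6xPWD, the F1 of C57BL/6 and PWD, where the labels of Apc Min library 11_6 conflict, the differences at the called pair were -0.27 and -0.04. These were fitted without a block for label number.

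Hoxb5, a homeobox gene of the HoxB cluster that takes part in patterning along the body axis and in gut innervation, had the gene end with the lowest p. At chr11:96302512-96304011 the C5 Apc Min libraries held 3.8, 0.863 and 1.05 CPM (12_2, 12_4, 16_2) and the C5F1 Apc Min libraries 0.851, 2 and 0.409. The wild type libraries held 1.41, 5.41 and 0.509 CPM in C5 (12_1, 12_11, 16_1) and 2.56, 2.02 and 3.24 in C5F1. C5F1 libraries did not overlap, while C5 libraries did, with 12_2 above all but 1 and 16_1 below all of the other C5 libraries. The difference of the 2 strains together was -0.78 ± 0.17 (1.5 ± 1.24 against 2.53 ± 1.7 CPM, adjusted p 0.0589 by edgeR), which did not pass. Within C5F1 alone it fell by 1.32 ± 0.26 (adjusted p 0.00974), the 1 gene end to pass in a single strain, and in C5 it differed by -0.34 ± 0.24. The difference between the strains did not pass (adjusted p 0.998). The pooled call passed when any of C5 Apc Min 12_2 or 16_2, C5 wild type 12_1 or 16_1, or C5F1 wild type 12_12 was left out, with differences of -1.27, -0.78, -1.02, -0.94 and -0.83. It did not pass without any 1 of the other 7, where the difference was smallest without C5 wild type 12_11 (-0.41) and C5F1 wild type 16_7 (-0.47). In B6 the difference was 0.78 and in B6xPWD -0.77, both fitted without a block for label number. The direction in B6 was thus opposite to that in C5, C5F1 and B6xPWD, and label number and genotype were not separated there. An antisense gene, Hoxb5os, overlaps this gene end, and MeDIP counts carry no strand.

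**Figure D3:**
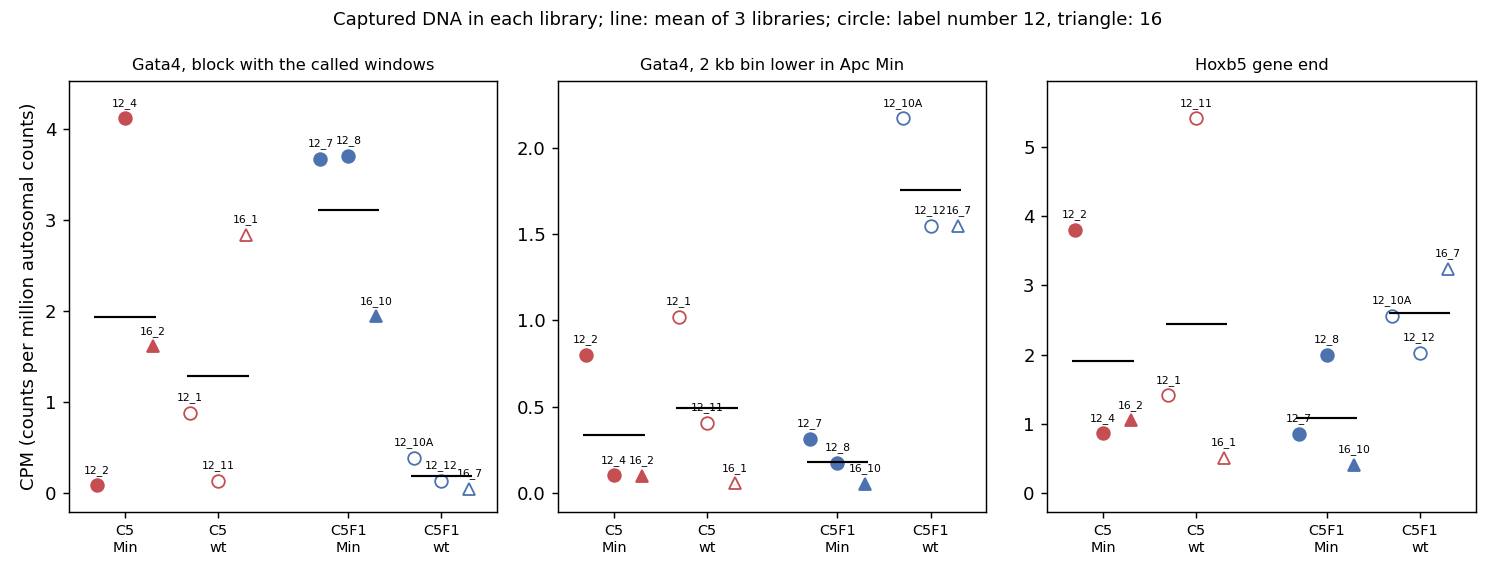
Captured DNA (y axis, CPM) in each of the 12 libraries at the Gata4 block with the called windows, the Gata4 2 kb bin that was lower in Apc Min, and the gene end of Hoxb5; filled symbols are Apc Min, open symbols wild type, bars the mean of 3 libraries. C5 Apc Min 12_2 lies with wild type in each panel, and C5 wild type 16_1 lies with Apc Min.

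In the libraries outside the comparison, those with more captured DNA at the Gata4 block had less at Hoxb5. Over the 34 other MeDIP libraries, the Gata4 block and the Hoxb5 gene end had a Pearson's r of -0.53 (permutation p 0.00162, adjusted over the 3 relations computed 0.00243) and a Spearman's rho of -0.55 (permutation p 0.00093, adjusted 0.00279). Without the 2 libraries farthest from the median of the block r was -0.52, and with each of the 11 groups of strain and tissue set to its own mean it was -0.62 (permutation within groups, p 0.00021, adjusted 0.00063). With the 2 kb bin at 63244001 r was -0.42 (permutation p 0.0132, adjusted 0.0132) and rho -0.46 (0.00594, adjusted 0.00594), -0.35 without the farthest and -0.48 within groups (p 0.0206, adjusted 0.0206). Within the 7 libraries of number 16 r was -0.62 for Hoxb5 and -0.23 for the bin, and within the 6 of number 11 it was -0.49 and -0.32. The relations were chosen after their values in the 12 libraries were seen, where r was -0.66 for Hoxb5 and -0.69 for the bin. Some of the 34 libraries may share an animal, which the labels do not give.

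Other gene ends with the lowest p were taken by rank, up to 5 in each direction, and none of these passed. Slc2a3, a glucose transporter, held 0.224 to 0.675 CPM (median 0.487) in Apc Min and 0.0566 to 0.39 CPM (median 0.181) in wild type, a difference of 1.35 ± 0.37 (p 0.000297, adjusted p 0.718 by edgeR) on 63 against 23 counts. The other higher ones were Adam1a in a region shared with Tmem116 (0.99 ± 0.28), Tmem39a (0.85 ± 0.26), Fam83e in a region shared with Rpl18 (0.95 ± 0.31) and Il10, an anti-inflammatory cytokine (0.51 ± 0.16). The lower ones beside Hoxb5 were Cd200, an immune inhibitory ligand (-0.46 ± 0.12), Krt1, a keratin of stratified epithelium (-0.44 ± 0.12), and Adora3, an adenosine receptor (-0.57 ± 0.17).

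Adora3 and Agr2 were 2 of the 6 gene ends at which the 6 Apc Min libraries and the 6 wild type libraries did not overlap. Adora3, whose region chr3:105903421-105904920 it shares with Tmigd3, held 0.853 to 1.32 CPM in Apc Min and 1.44 to 1.87 CPM in wild type. Agr2, a protein disulfide isomerase that goblet cells need to make mucin, held 0.66 to 1.08 CPM in Apc Min and 0.341 to 0.638 CPM in wild type (0.64 ± 0.24, p 0.00714, adjusted p 1 by edgeR). Agr2 was the 1 of 9666 gene ends (0.0103%) with Apc Min entirely above wild type, and 5 (0.0517%) had it entirely below. The other 4 were Lgi3, Chp2, Vmn1r24 and Ddr2, at differences of -0.45, -0.43, -0.52 and -0.23. The 250 bases before the start of Cd200, Adora3 and Agr2, 3 of the gene ends just described, are shown for the CpGs next to the start. The counts come from the whole gene end, of which this is a part. The stretches are written 5′ to 3′ on the strand of the gene with each CpG in capitals, from RefSeq's GRCm38.p6, at chr16:45409054-45409303 (minus strand), chr3:105904171-105904420 (plus strand) and chr12:35992675-35992924 (plus strand).
Cd200: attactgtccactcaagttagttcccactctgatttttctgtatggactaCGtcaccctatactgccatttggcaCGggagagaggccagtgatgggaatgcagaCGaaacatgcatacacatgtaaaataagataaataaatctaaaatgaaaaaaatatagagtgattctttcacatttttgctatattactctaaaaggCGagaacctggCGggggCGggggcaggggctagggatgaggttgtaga
Adora3: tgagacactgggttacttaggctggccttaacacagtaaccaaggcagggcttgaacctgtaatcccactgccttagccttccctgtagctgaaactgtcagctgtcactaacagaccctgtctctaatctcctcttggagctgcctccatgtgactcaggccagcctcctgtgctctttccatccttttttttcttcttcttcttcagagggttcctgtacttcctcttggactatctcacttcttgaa
Agr2: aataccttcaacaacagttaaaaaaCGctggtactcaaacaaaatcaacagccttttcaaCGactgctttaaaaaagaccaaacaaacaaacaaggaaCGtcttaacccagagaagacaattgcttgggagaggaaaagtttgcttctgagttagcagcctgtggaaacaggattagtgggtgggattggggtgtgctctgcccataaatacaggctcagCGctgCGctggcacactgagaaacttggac

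Cd200 has 6 CpGs in this stretch, a number that 50.4% of the 32851 promoters in the table reach, Agr2 has 5 (55.6%) and Adora3 has 0. The motif counted is CG, which reads the same on both strands.

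Apc itself, the gene that carries the Min allele, did not pass. Its gene end at chr18:34219297-34220796, which Gm10548 also overlaps, held 1.57 to 1.96 CPM (median 1.7) in Apc Min and 1.5 to 2.71 CPM (median 1.81) in wild type, with overlap over the whole Apc Min range. The difference was -0.11 ± 0.15 (p 0.473, adjusted p 1 by edgeR). C5 wild type 16_1 was the highest at 2.71 CPM, and without it the difference was 0.03. The counts are of methylation and do not show the allele, so they do not check the genotype. Within 1 Mb of Apc, 0 of 14 gene ends and 0 of 211 bins passed with edgeR. An unadjusted p under 0.05 was reached by 1 gene end (7.14%) and 6 bins (2.84%), against 4.74% and 3.65% over all gene ends and bins. The gene end was that of Srp19, a signal recognition particle subunit that lies beside Apc, chosen after its values were seen (-1.13 ± 0.36, p 0.00175, adjusted p 1).

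Gene lists were set beside the 49.2% of all tested gene ends above 0 and their median difference of -0.00373, and 0 members of the 17 lists passed with edgeR. In the β-catenin destruction complex 3 of 7 tested members were above 0, with Axin2, a scaffold and Wnt target, at -0.13 ± 0.16. Among Wnt ligands and receptors 4 of 12 were above 0, with Wnt1 at -0.30 ± 0.24 and the agonist Rspo2 at -0.36 ± 0.28. Among Wnt antagonists 8 of 13 were above 0, with Nkd2 at -0.59 ± 0.24 and Cer1 at 0.46 ± 0.21, the only 2 with an unadjusted p under 0.05. Wnt targets and stem cell genes had 2 of 8 above 0, with Tcf7 at -0.29 ± 0.23 and Bmi1, in a region shared with Commd3, at -0.33 ± 0.31. Lists of the Wnt pathway therefore had medians between -0.080 and 0.011.

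Germline genes, which are methylated in somatic tissue and were the list with the largest share on 1 side, had 7 of 44 members above 0 (15.9%) and a median of -0.127. Smc1b, a meiotic cohesin in a region shared with Ribc2, was at -0.42 ± 0.16 (1.43 ± 0.533 against 1.89 ± 0.574 CPM), and Fkbp6, in a region shared with Trim50, at -0.37 ± 0.17. Ddx4, Dpep3 and Spo11 had unadjusted p under 0.05 as well, at -0.24, -0.21 and -0.46. Summed over the list, Apc Min libraries held 94.7 to 204 CPM (median 160) and wild type libraries 106 to 222 CPM (median 167), which overlapped over most of their range. The list median lay between -0.179 and -0.015 over the alternatives, and at the other end of the genes 13 of 26 tested members were above 0. Its members had the highest median level of the 17 lists (3.41 CPM). With the share of CpG-dense DNA of each library as a covariate 14 of 44 were above 0, at a median of -0.089.

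Lists of epithelial and other cell types had members on both sides of 0. Enterocyte genes had 8 of 20 above 0, with Krt20 at 0.27 ± 0.17 and the amino acid transporter Slc6a19 at -0.27 ± 0.20. Secretory cell genes had 10 of 18 above 0, with Agr2 as above and the hormone Sct at -0.33 ± 0.20. Immune genes had 17 of 29 above 0, with Zap70, a T cell kinase, at -0.29 ± 0.13 and Cd4, in a region shared with Gpr162, at 0.38 ± 0.24. Stromal and endothelial genes had 7 of 18 above 0, with the smooth muscle myosin Myh11 at -0.61 ± 0.29 and the endothelial receptor Tie1 at -0.30 ± 0.15. Summed over the list, immune genes held 40.8 to 53.9 CPM in Apc Min and 41.5 to 55.3 CPM in wild type, and stromal genes 15.3 to 25.3 and 16.3 to 29.5 CPM. The part of cell mix in the differences above was not tested.

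Transcription factors of gut epithelium had 9 of 12 members above 0 (75%), the highest share above 0 of the lists, at a median of 0.132. Among them Cdx1, an intestinal homeobox factor in a region shared with Gm52351, was at 0.38 ± 0.24. Hox genes had 12 of 25 above 0, with Hoxb5 as above and Hoxa11 at -0.59 ± 0.34. Imprinted genes had 12 of 33 above 0, with Inpp5f at -0.57 ± 0.24 and Igf2r at -0.25 ± 0.12. Genes reported as methylated in colorectal cancer had 15 of 32 above 0, with Tmeff2 at -0.54 ± 0.25 and Igf2 at -0.34 ± 0.20.

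Secreted phospholipases, the family of the Min modifier Pla2g2a, had 7 of 10 above 0 with a median of 0.010, and Pla2g12b and Pla2g12a lay at 0.39 ± 0.23 and 0.30 ± 0.24. Other modifiers of Min had 8 of 12 above 0, with the cyclooxygenase Ptgs1 at 0.37 ± 0.28. Enzymes of DNA methylation had 6 of 9 above 0, with the demethylating dioxygenase Tet2 at -0.48 ± 0.26. Of 15 housekeeping genes only 2 had enough counts to be tested, Ywhaz at -0.16 ± 0.18 and Gusb at 0.14 ± 0.31. The dot plot of the lists shows the members on both sides of 0 in each of them.

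**Figure D4:**
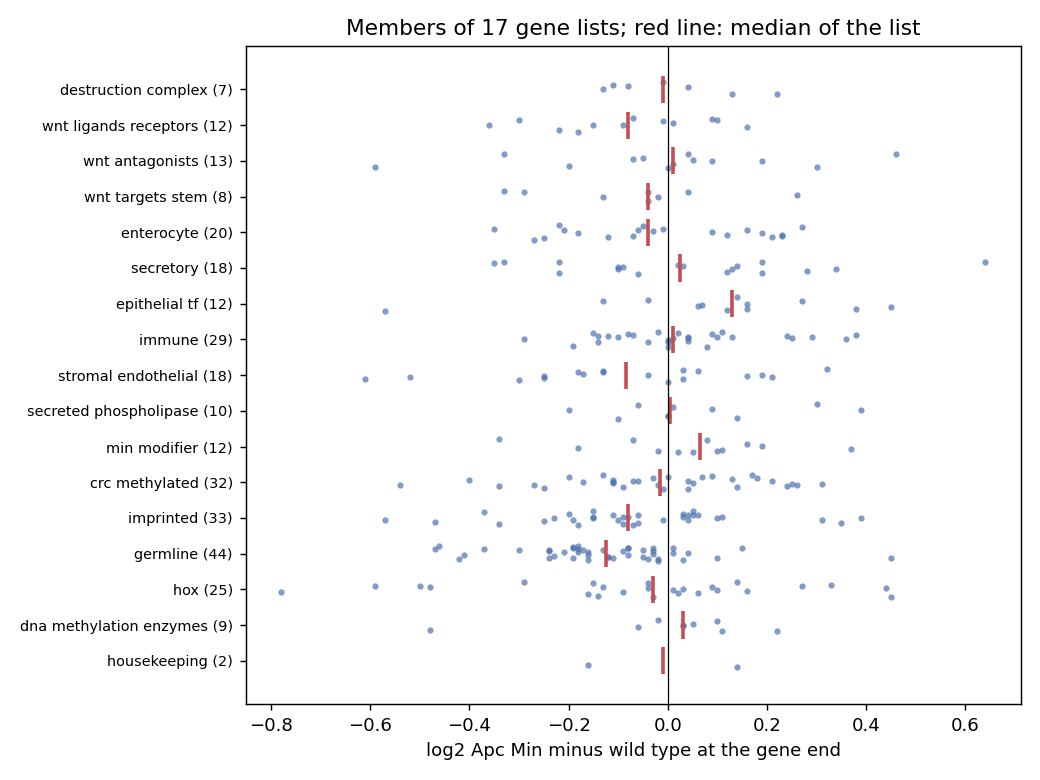
Difference of Apc Min from wild type at each tested member of the 17 gene lists (x axis, log2; 1 row per list), with the list median marked. Members lie on both sides of 0 in each list; germline genes have 7 of 44 and gut transcription factors 9 of 12 above 0.

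Among 10 kb bins, named by the same rule without any passing, the higher ones beside that of Gata4 lay at chr5:80080001-80090000 (0.73 ± 0.15), chr5:37980001-37990000 (0.39 ± 0.09), chr7:7730001-7740000 (1.12 ± 0.27) and chr14:82650001-82660000 (0.38 ± 0.10). The first lies 929085 bp from its nearest gene Adgrl3 and held 1.52 to 2.3 CPM in Apc Min and 0.767 to 1.41 CPM in wild type, with no overlap. It is 1 of 129 bins (0.0547%) entirely above, and 76 (0.0322%) lay entirely below. The lower ones were at chr3:17780001-17790000 by the host gene of Mir124-2 (-0.44 ± 0.09), chr13:111370001-111380000 (-0.39 ± 0.09), chr13:73270001-73280000, 379 bp from the homeobox gene Irx4 (-0.37 ± 0.09), chr4:127130001-127140000 beside Tmem35b (-0.42 ± 0.10) and chr10:88940001-88950000 at Ano4 (-0.33 ± 0.08). The bins by Irx4 and at Ano4 did not overlap, with at most 5.02 and 5.53 CPM in Apc Min and at least 5.11 and 5.56 CPM in wild type.

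Among windows outside Gata4, those in Adgrf5, an adhesion receptor of endothelium and lung, and in Gys2, the liver glycogen synthase, had the lowest p of the higher ones and did not pass. The Adgrf5 window at chr17:43428501-43428750 held 0.613 to 0.914 CPM in Apc Min and 0.226 to 0.389 CPM in wild type (1.28 ± 0.27, adjusted p 0.492 by edgeR). The Gys2 window at chr6:142428501-142428750 held 0.479 to 0.851 and 0.18 to 0.339 CPM (1.40 ± 0.30, adjusted p 0.608). Neither pair of groups overlapped, which was so at 329 windows (0.0507%) with Apc Min above and at 357 (0.055%) with it below. A further higher window lay at chr14:25787751-25788000, 18679 bp from Zcchc24 (1.22 ± 0.27). Lower windows were at chr9:52916501-52916750 (-1.23 ± 0.25, adjusted p 0.315), chr17:78280251-78280500 in Crim1 (-1.14 ± 0.26), chr16:3016501-3016750 (-0.98 ± 0.22), chr15:27848751-27849000 in Trio (means of 0.481 ± 0.157 CPM in Apc Min and 0.958 ± 0.192 in wild type, SD, n = 6 each) and chr15:78256751-78257000 in Ncf4, a subunit of the phagocyte oxidase (-1.18 ± 0.27).

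The 2 strains were then compared with each other across all features. Across gene ends the differences of C5 and C5F1, which share no library, had a Pearson's r of 0.007, and 50.6% had the same sign (n = 9666). Across bins r was -0.037 with 48.6% of the same sign (n = 236021). The libraries of number 12 and those of number 16 gave r of 0.031 and 0.006. These r are across features, which are not independent replicates, and neighbouring bins share fragments. Against B6, whose libraries are separate, r was -0.089 at gene ends and -0.100 in bins, and against B6xPWD -0.072 and -0.084. The differences of B6 and B6xPWD were fitted without a block for label number. The label number held a median of 24% of the variance of a bin over the 12 libraries, strain 4.64% and genotype 2.85%, and on chromosome 5 strain held 7.73%. Any split of 12 libraries into 2 groups holds some variance without an effect, and no such baseline was taken off. The shares of strain and genotype are therefore not read as effects.

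**Figure D5:**
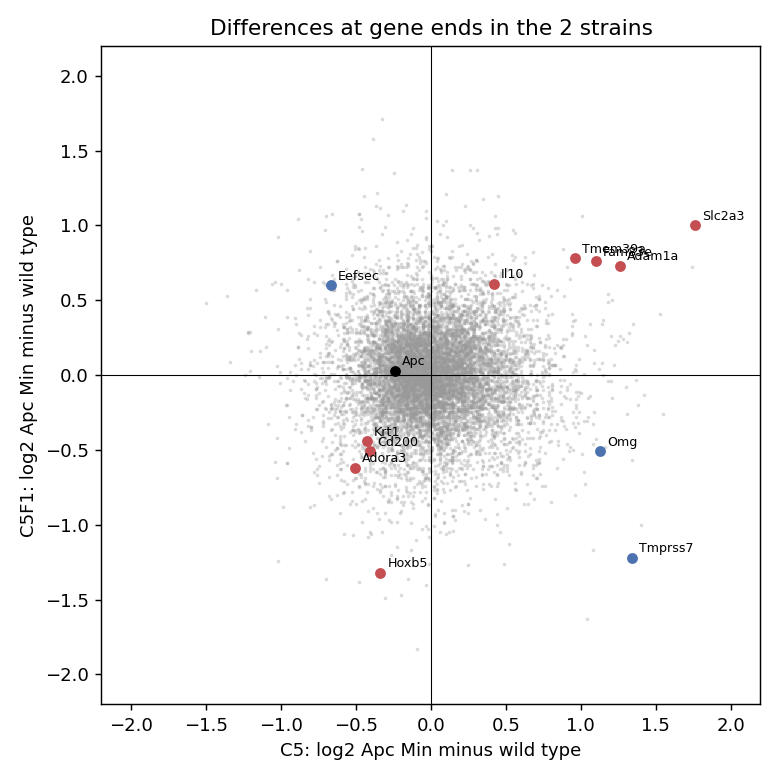
Difference of Apc Min from wild type in C5 (x axis) against that in C5F1 (y axis), both log2, for 9666 gene ends. The points form a round cloud (r 0.007), with Hoxb5 at -0.34 in C5 and -1.32 in C5F1.

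Within C5F1, 6 windows passed with edgeR, 0 bins did (7597 at an unadjusted p under 0.05), and Hoxb5 was the 1 gene end. Of the windows 5 lay in Gata4. The other was chr13:53465501-53465750, 1131 bp from the homeobox gene Msx2, with 0.493, 0.696 and 0.664 CPM in Apc Min and 0 in each of the 3 wild type libraries (adjusted p 0.0046), while the difference in C5 was -0.13. The difference between strains did not pass there (adjusted p 0.993).

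Within C5, 4 bins passed, with 0 windows (28350 at an unadjusted p under 0.05) and 0 gene ends (444). One was the bin beside Tmem35b, which fell by 0.79 ± 0.13 (adjusted p 0.0241 by edgeR), from 8.08, 7.67 and 8.37 CPM in wild type to 4.98, 4.62 and 4.52 CPM in Apc Min, against -0.06 ± 0.13 in C5F1. The difference between strains, 0.74 ± 0.18, did not pass there (adjusted p 1). The other 3 bins adjoin each other at chr9:99750001-99780000, some distance from the claudin gene Cldn18. Summed over these, C5 Apc Min libraries held 1.1 CPM in 12_2, 0.152 in 12_4 and 7.88 in 16_2, on 26, 3 and 157 counts. C5 wild type libraries held 0, 0 and 0.0566 CPM, where 3 counts would be 0.135 to 0.17 CPM. C5F1 libraries held 6.44 to 7.96 CPM in both genotypes and B6 libraries 13.1 to 16.5 CPM. PWD libraries held 14.7 to 15.1 CPM and B6xPWD libraries 13.4 to 17 CPM. C5 adenomas held 0 in 12_3, 0 in 12_5 and 8.52 CPM in 16_3. Among C5 libraries of both tissues, 16_2 and 16_3 thus lay at the level of C5F1, 12_2 lay between, and the others lay near 0; what these bins hold in the C5 genome was not tested.

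Of the named gene ends for the difference between strains, none passed. Tmprss7, a membrane serine protease, differed most by p (-2.57 ± 0.69 for C5F1 minus C5, p 0.000223, adjusted p 0.683 by edgeR), with 1.34 in C5 and -1.22 in C5F1. Eefsec, the selenocysteine elongation factor, had 1.27 ± 0.34 and Omg, a myelin glycoprotein in a region shared with Nf1, -1.64 ± 0.45. Of windows beside that in Gata4, one in Ccdc102a (chr8:94913251-94913500) had -2.02 ± 0.41 and one in Gtf2e1 (chr16:37517001-37517250) 2.13 ± 0.46. The bins were the 3 on chromosome 9, with adjusted p of 0.07, 0.21 and 0.501, and the C5 wild type libraries were at 0 but for 1 count in 16_1.

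Genome-wide, the percentage of counts from CpG-dense windows, those with a deposited CpG density of 10 or more, did not pass. It was 4.06% to 6.69% in Apc Min (median 6.02%) and 4.43% to 6.87% in wild type (median 5.86%). The means were 5.66 ± 1.12% and 5.85 ± 0.973% (SD, n = 6 each), a difference of -0.185 percentage points (p = 0.333 by a two-sided exact permutation test, 0.917 adjusted over 4 density classes). Within number 12 the means were 6.35% and 6.36%, and within number 16 they were 4.3% and 4.83%, and all 4 libraries of number 16 lay below all 8 of number 12. Without C5 Apc Min 16_2, C5F1 Apc Min 16_10, C5 wild type 12_1 or C5 wild type 12_11 the difference was above 0, at 0.137, 0.0412, 0.013 and 0.0193 points. The adjusted p of the other classes were 0.917 and 0.944.

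Shares of counts were also compared by chromosome. Of 19 autosomes 0 passed the exact permutation test of their share of counts and 0 had an unadjusted p under 0.05, with a lowest p of 0.292 (exact permutation, adjusted 0.844). Chromosome 5, the one exchanged in these strains, held 5.11 ± 0.119% of counts in Apc Min and 5.1 ± 0.103% in wild type. Chromosome 18, which carries Apc, held 3.69 ± 0.0806% and 3.68 ± 0.075%. The largest difference in either direction was -0.0264 percentage points, on chromosome 7.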

How the data were processed

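The authors deposited 1 table of whole-number read counts per 250 bp window of the mm10 genome with a CpG density per window, a score on a scale that these sources do not state. BWA and mm10 are named in the submitters' processing notes. Counts were summed into 10 kb bins and gene ends, the latter from RefSeq gene positions of GRCm38.p6, which the table gives without strand. Features with a minimum count of 10 by filterByExpr were fitted with edgeR 4.0.16 (quasi-likelihood, TMM, autosomal library sizes, trended dispersion) on strain, first label number and genotype, with p-values adjusted over all autosomal features of a kind; DESeq2 1.42.0 was run in R 4.3.3 as an alternative. The scripts were tested on simulated counts. The label numbers 12 and 16 were used as a block by the design. The number held a median of 24% of a bin's variance. No baseline was taken off that share, so it does not by itself check the block. Exact permutations moved genotype within the 4 cells of strain and number (144 arrangements). The table has 0 sample columns without a label.

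Named features were those that passed, then the lowest p until 5 were named per direction with the same sign in both strains, the 3 lowest p for the difference between strains, the 2 lowest p of each list, and Apc. Some results that this rule selects are not reported here, and their genes stay in the fits and list counts. Windows under 1000 bp apart count as 1 item. Members, lists and tests were chosen with earlier results of these data known, and some gene lists were made after such results, so they support nothing by themselves. Alternatives were other scalings, blocks, filters, bin sizes, gene ends and DESeq2, and leaving out each library. Promoter sequences are from RefSeq's GRCm38.p6; 4 of the 13 gene ends named for the comparisons had one in their region. Permutation tests of correlations used 100000 resamples.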

Additional observations from a re-analysis of the deposited data

Results flagged for a closer look

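In 82 tests for a library far from the other 5 of its genotype, 8 stood out, all in libraries of label number 16. The tests took no account of strain or label number, and the flagged windows of Gata4 lie close together. A rate by chance is therefore not set beside the 8. At the windows of Gata4 starting at 63251751, 63251501 and 63248251 it was the same library, C5 wild type 16_1, with 0.396, 1.47 and 1.7 CPM, against 0 to 0.146, 0 to 0.487 and 0 to 0.146 CPM in the others. The same library had 2.71 CPM at Apc, against 1.5 to 1.89. C5 Apc Min 16_2 had 0.753 CPM at Tmprss7, against 0.224 to 0.355, and 5.32 CPM in the 10 kb bin 5:37980001, against 4.26 to 4.62. C5F1 wild type 16_7 had 0.638 CPM in the bin 7:7730001, against 0.135 to 0.283, and C5F1 Apc Min 16_10 had 1.48 CPM in the window 16:37517001 of Gtf2e1, against 0.314 to 0.74.

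The window 14:63251501 of Gata4 differed between strains in its Apc Min effect, by 4.81 on the log2 scale (C5F1 minus C5), in a direct test of that difference. Without the first label number as a block this call was lost at the same difference, 4.81, and it held in 5 of 12 cases with 1 library left out.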

How the results depend on the processing

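With no replicate block (the first label number left out) 0 windows passed with edgeR, and 0 differed between strains, though the called windows kept differences of 2.39 and 1.65 and the strain difference stayed at 4.81. With the block by cell of strain and number 3 windows passed. By DESeq2's size factors 1 window passed, with the CpG-dense share as a covariate 0, with number 12 only 5, with all 46 libraries in 1 model 0 (at differences of 2.60 and 2.64), and with a minimum count of 20 0. Leaving out 1 library gave 0 to 10 windows, 0 to 1 bins, 0 to 1 gene ends, 1 to 10 of the 2 kb bins and 0 to 6 windows that differed between strains, the last 2 chosen after seeing the data. The 10 kb bin in Gata4 was the 1 bin that passed with the block by cell, the covariate or number 12 only, and 3 of the 2 kb bins passed, against 0 of 100 kb. With no filter 1 gene end, Hoxb5, passed. The share of CpG-dense counts ranged from -0.468 to 0.137 points without 1 library and was above 0 in 4 such cases (0.0412, 0.137, 0.013 and 0.0193). The exact permutation gave log2 ratios of means of 2.37 and 1.56 at the called windows and passed neither.

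At the other end of the gene the sign changed at Slc2a3 (-0.34), Fam83e (-0.20), Cd200 (0.48), Adora3 (0.16), Apc (0.01), Axin2 (0.03), Wnt1 (0.26), Nkd2 (0.53), Cd4 (-0.10), Tie1 (0.03), Igf2 (0.36), Tmeff2 (0.18), Smc1b (0.14) and Tet2 (0.22). With 2000 bp on either side it changed at Slc6a19 (0.00), without C5 wild type 16_1 at Apc (0.03, with a range of -0.23 to 0.03 without 1 library) and without C5 wild type 12_1 at Gusb (-0.08, range -0.08 to 0.28). Of 1713 values of 90 named results under alternatives, 1633 kept their direction and their side of the threshold, 42 lost and 21 gained the call, and 17 changed sign. The cause was not tested. Counts of 14 to 81 per group at the first called window limit its precision.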
